A study of Mus musculus with 35 samples.

Results

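Ccr2, Cx3cr1, Vcan, Chil3, Lyz2, Mpeg1 and Plac8 are 7 transcripts by which monocytes that enter an inflamed mouse liver are often recognised. They were chosen by symbol through the platform's annotation, and each gene is described by its brightest probe set that names a single gene. They are 7 of 18193 genes with such a probe set, and all 7 are among the 12678 genes that passed the filter on low signals. The arrays hold 1 RNA sample of the left lateral liver lobe from each of 35 BALB/c mice, taken 6 h after 1 intravenous injection. Of the 7 groups of 5 mice, 3 received the silica particle SP70, at 10, 20 or 40 mg/kg. Another group received SP30 at 10 mg/kg, and 2 groups received SP300 at 10 or 200 mg/kg. The control group received deionized water, and the labels say that the mice were assigned at random. The number in a particle's name marks its size. The study set out to follow a dose response of SP70 and a size response of the 3 particles. Sizes were compared at an equal 10 mg/kg, and again at the doses called toxic, which were 40 mg/kg of SP70, 200 mg/kg of SP300 and, for SP30, the same 10 mg/kg. Age and sex of the mice are not given in the sources used here.

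Blood monocytes of the mouse fall into a classical type, which carries much CCR2 and little CX3CR1, and a non-classical, patrolling type with the opposite pattern. Chemokines such as CCL2 and CCL7 act on CCR2 to draw classical monocytes out of the bone marrow and into injured tissue, where they can become macrophages. Liver also has its own resident macrophages, the Kupffer cells, which take up injected particles from the blood. Of the 7 genes, Lyz2 and Mpeg1 are used by macrophages in general as well as by monocytes, Lyz2 and Plac8 also by neutrophils, and Cx3cr1 also by other myeloid cells.

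The ETS factor PU.1 drives many genes of the monocyte and macrophage lineage through sites built on the core AGGAA, so the 250 bases before each gene's start were searched for that core on both strands. These 3 sequences are shown because the genes follow 3 different patterns across the groups below. They are from RefSeq (GRCm38.p6), read 5′ to 3′ on the gene's strand, with each AGGAA or its reverse complement in capitals.
Lyz2, chr10:117282273-117282522, minus strand: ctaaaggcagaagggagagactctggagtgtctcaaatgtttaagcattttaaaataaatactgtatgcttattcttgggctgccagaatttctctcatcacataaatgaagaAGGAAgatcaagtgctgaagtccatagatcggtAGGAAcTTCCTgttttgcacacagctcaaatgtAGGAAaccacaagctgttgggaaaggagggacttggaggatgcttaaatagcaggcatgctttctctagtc
Cx3cr1, chr9:120068297-120068546, minus strand: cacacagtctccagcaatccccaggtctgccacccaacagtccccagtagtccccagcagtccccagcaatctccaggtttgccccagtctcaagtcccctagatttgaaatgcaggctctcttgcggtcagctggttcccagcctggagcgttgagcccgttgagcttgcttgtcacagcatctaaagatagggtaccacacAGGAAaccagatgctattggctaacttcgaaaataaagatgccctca
Chil3, chr3:106167565-106167814, minus strand: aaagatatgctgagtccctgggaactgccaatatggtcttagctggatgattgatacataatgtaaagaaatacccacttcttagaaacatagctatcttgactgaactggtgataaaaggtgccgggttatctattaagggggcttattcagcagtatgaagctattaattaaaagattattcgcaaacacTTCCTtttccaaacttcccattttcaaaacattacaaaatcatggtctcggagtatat
The Lyz2 sequence holds 4 matches, the Cx3cr1 and Chil3 sequences 1 each. Ccr2 has 2, Vcan 1 and Mpeg1 0, and the start sites listed for Plac8 have 2 and 1. Of 32851 promoter sequences of the same length, 60.3% hold at least 1 match, so its presence does not set these genes apart. A longer PU.1 form, GAGGAAG, which contains the core and is found in 10.6% of those promoters, had no match in the 7 genes. The same held for an interferon response motif (2.98% of promoters) and an NF-kB motif (0.98%). TTGCNNAA, the paired half-sites of C/EBP factors (9.56%), was found only before the second Plac8 start.

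Values are MAS5 signals, a linear intensity per probe set. Pairs of arrays within a group correlated over all probe sets at 0.941 to 0.956, with no identical pair. A gene passed the filter if its signal exceeded 165, the median signal, on 5 or more arrays. Changes are log2 differences of signal plus 12.5, given ± the moderated SE of limma's fit, with Benjamini-Hochberg adjusted p-values over all 12678 genes and a threshold of 0.05. Where mice of the lower group had signals under 165, a fold was computed with all signals under 165 in both groups raised to 165. It is given as "at least", which is a strict bound only where no mouse of the higher group was under 165. A log2 change to or from signals under 165 depends on the 12.5 added, so its size is not firm. In RNA of whole liver, fewer cells of a type and less RNA per cell cannot be told apart. The p-values measure the spread between mice, and 5 arrays in a group limit the precision.

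**Figure D1:**
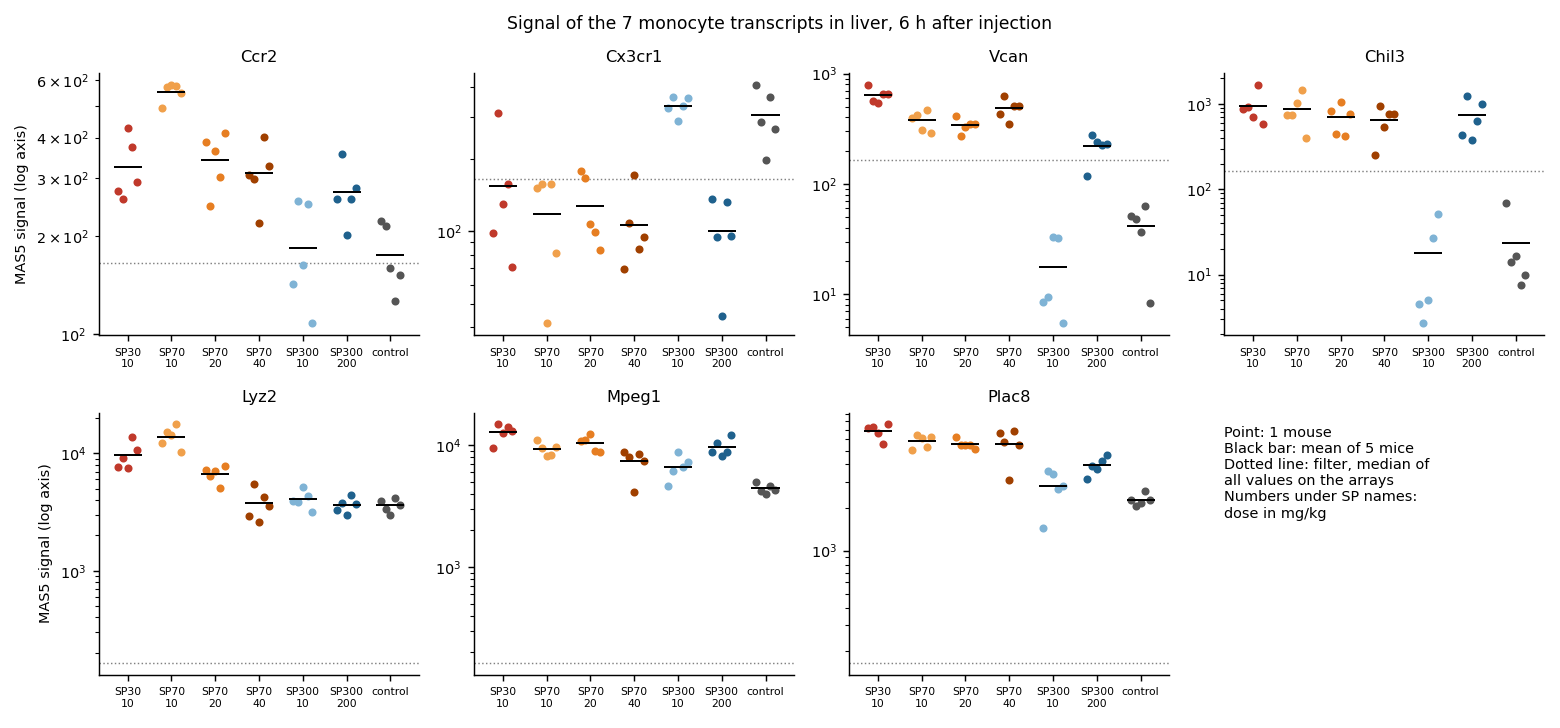
MAS5 signal of the 7 transcripts (vertical log axis) in each of 35 mice (points), with the mean of 5 mice as a black bar and the filter value of 165 as a dotted line; groups run along the horizontal axis with the dose in mg/kg. Vcan and Chil3 stood over the filter in the SP30, SP70 and 200 mg/kg SP300 groups, apart from 1 Vcan value of 117, and under it in every mouse given 10 mg/kg SP300 or water, whereas Cx3cr1 was highest in the 2 last named groups.

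Against control, the 7 transcripts split into 6 that were higher and 1, Cx3cr1, that was lower. After 10 mg/kg SP70 all 7 passed the test, 6 higher and 1 lower, where 18.2% of all genes did (12.5% higher and 5.69% lower). The same count was found after 20 mg/kg SP70, where 39.7% of all genes passed (18.8% higher and 20.9% lower). After 40 mg/kg SP70 it was 5 higher, 1 lower and 1 not past the threshold, beside 44.4% of all genes (15.6% higher and 28.8% lower). SP30 at 10 mg/kg gave 6 higher and 1 lower, beside 49.3% of all genes (18% higher and 31.3% lower). None of the 7 passed after 10 mg/kg SP300, where limma called 1.17% of all genes (0.923% higher and 0.245% lower). At an unadjusted p under 0.05 the count was 2 of 7, Vcan and Mpeg1, beside 14% of all genes in either direction. SP300 at 200 mg/kg gave 5 higher, 1 lower and 1 not past the threshold, beside 30.6% of all genes (12.6% higher and 18% lower). The gene that left the count at 40 mg/kg SP70 and 200 mg/kg SP300 was Lyz2 in both. The median change of the 7 was 1.62, 1.22 and 0.79 after 10, 20 and 40 mg/kg SP70, where the median of all genes was 0.01, -0.03 and -0.09. It was 1.52 after SP30 (all genes, -0.12), 0.16 after 10 mg/kg SP300 (all genes, 0.06) and 0.79 after 200 mg/kg SP300 (all genes, -0.06). These comparisons share the 5 control mice.

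Ccr2 (probe set 1421186_at, gene on chromosome 9), the receptor of CCL2 and CCL7, had its highest signals in mice given the lowest dose of SP70. The 5 mice at 10 mg/kg SP70 had 491.5, 572, 578, 573 and 547.5. At 20 mg/kg SP70 the signals were 387, 247, 363, 303 and 413. At 40 mg/kg SP70 they were 307, 299, 219, 402 and 326. Every mouse of the 10 mg/kg dose thus lay over every mouse of the higher doses. SP30 mice had 275, 259, 428, 375 and 293. Mice given 10 mg/kg SP300 had 143, 256, 163, 251 and 108. Those given 200 mg/kg SP300 had 259, 356, 202, 259.8 and 281. The control values, 222, 215, 160.0, 126 and 152, overlapped those of both SP300 groups and of the 40 mg/kg SP70 group. The rise over control was 1.62 ± 0.20 after 10 mg/kg SP70 (adjusted p = 1.63e-07; at least 2.99-fold). It was 0.93 ± 0.20 after 20 mg/kg (adjusted p = 0.00038) and 0.79 ± 0.20 after 40 mg/kg (adjusted p = 0.00176). SP30 gave 0.86 ± 0.20 (adjusted p = 0.000688), and 200 mg/kg SP300 gave 0.61 ± 0.20 (adjusted p = 0.022). The call for 200 mg/kg SP300 was lost without control replicate 4 (adjusted p = 0.075) or without replicate 2 of the 200 mg/kg SP300 group (adjusted p = 0.0787). After 10 mg/kg SP300 the change was 0.03, with an interval of -0.38 to 0.44. In the order of mean signal, 10 mg/kg SP70 (552.5 ± 36.2, SD, n = 5) stood over 20 mg/kg SP70 (342 ± 67.1) without overlap, while each later group overlapped the next down to control (175 ± 41.5).

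Ccr2 has 4 single-gene probe sets, of which 3 passed the filter, and they did not give the same dose pattern. Probe set 1421188_at rose against control in the same 5 groups, by 1.77, 1.51 and 1.60 over the SP70 doses, 1.39 after SP30 and 1.12 after 200 mg/kg SP300. Its signals after 10 mg/kg SP70 were 279.7, 376, 311, 288 and 288, against 138, 84.2, 174, 93.2 and 12.8 in control mice. Between 10 and 20 mg/kg SP70 it changed by -0.26 (adjusted p = 0.657), where 1421186_at changed by -0.69. Probe set 1460067_at passed the test only after 20 mg/kg SP70, by 0.96 (adjusted p = 0.0207), and gave 0.53 after 10 mg/kg (adjusted p = 0.314). At 20 over 10 mg/kg SP70 it ran the other way, at 0.44 (adjusted p = 0.417). A Ccr2 level over control after SP70 was therefore shared by the 3 probe sets in direction, and a difference between the doses past the threshold was found with the brightest one alone. The signals of 1421187_at were under the filter value in all but 1 mouse.

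**Figure D2:**
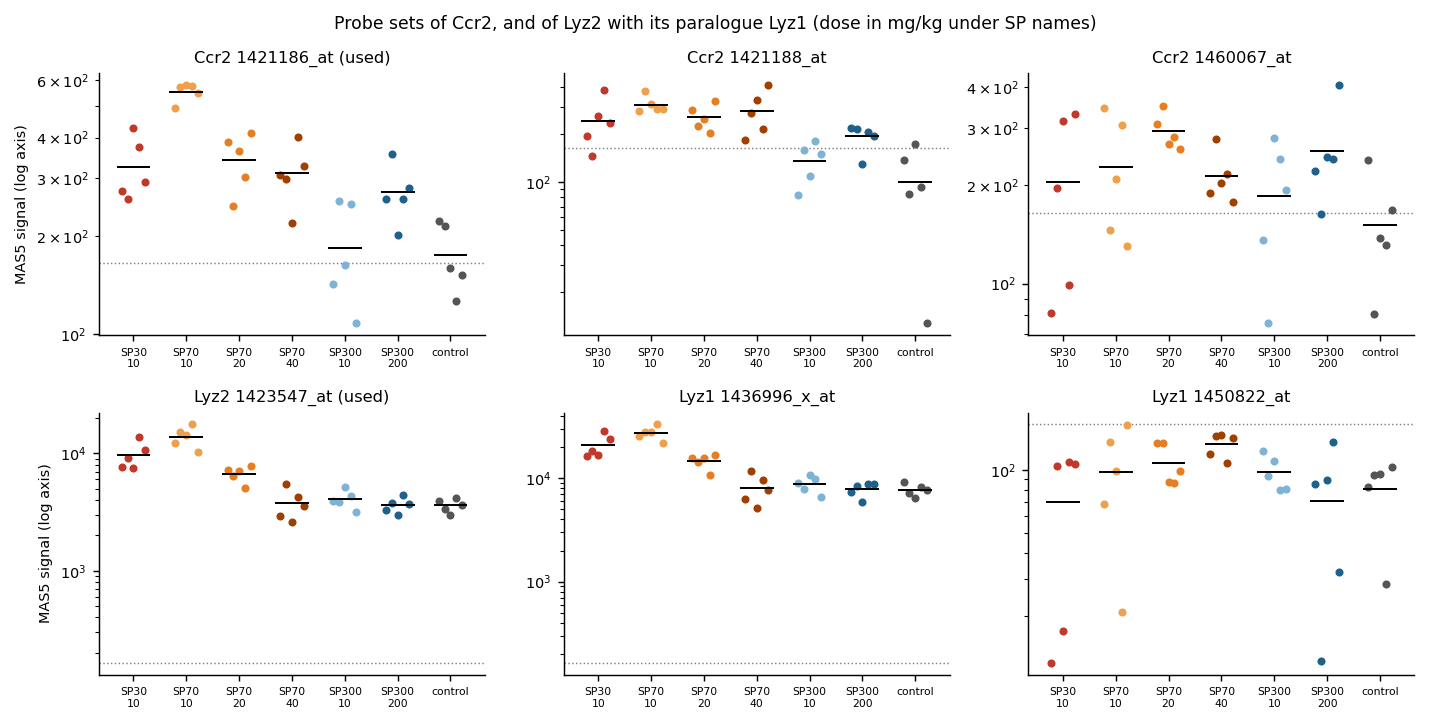
MAS5 signal (vertical log axis) per mouse (points; bar, mean of 5) in the 7 groups along the horizontal axis, for 3 probe sets of Ccr2 in the upper row and for Lyz2 with 2 probe sets named Lyz1 in the lower row. The upper row shows the 10 mg/kg SP70 mice standing apart for 1421186_at alone; the lower row shows Lyz1 1436996_x_at following Lyz2, while Lyz1 1450822_at stayed under the filter value of 165 in every mouse.

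Cx3cr1 (1450020_at, chromosome 9), the receptor of fractalkine, was the one transcript of the 7 that fell. Its signals at 10 mg/kg SP70 were 151, 157, 41.3, 158 and 81.1. Mice at 20 mg/kg SP70 had 179, 167, 107, 99.3 and 83.5, and those at 40 mg/kg SP70 had 69.6, 108.5, 172, 84.6 and 94.9. No mouse of these 3 groups reached the lowest control mouse. After SP30 the values were 98.7, 312, 130.4, 157 and 70.7, so 1 mouse stood within the control range. The 10 mg/kg SP300 mice had 327, 362, 287, 332 and 359.7, and the 200 mg/kg SP300 mice 136, 94.9, 44.4, 133 and 95.3. In control mice the signals were 407, 286, 199, 364 and 266. The groups thus form a high pair, 10 mg/kg SP300 (334 ± 30.3) and control (304 ± 82.1), and a low set whose means lay between 101 and 154. Within each set the neighbouring groups overlapped. Cx3cr1 fell by 1.37 ± 0.33 after 10 mg/kg SP70 (adjusted p = 0.00286), by 1.19 after 20 mg/kg (adjusted p = 0.00413) and by 1.44 after 40 mg/kg (adjusted p = 6e-04). The fall was 1.05 after SP30 (adjusted p = 0.00905) and 1.52 after 200 mg/kg SP300 (adjusted p = 0.000581). Since most mice of the low groups were under the filter value, these falls are at least 1.79-, 1.76-, 1.77-, 1.58- and 1.79-fold. The change after 10 mg/kg SP300 was 0.16 (adjusted p = 0.881). A second probe set, 1450019_at, was under the filter value on all arrays and gave no test.

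Vcan (1427256_at, chromosome 13) encodes versican, a matrix proteoglycan made in quantity by classical monocytes, and it was over the control range in every mouse of 5 particle groups. Its signals were 393, 425, 305, 467 and 289 at 10 mg/kg SP70. They were 410.2, 272, 331, 346 and 349 at 20 mg/kg SP70 and 430.2, 626, 351, 512 and 509.7 at 40 mg/kg SP70. SP30 mice had the highest mean, with 786, 564, 543, 649 and 647. Mice at 10 mg/kg SP300 had only 8.54, 9.46, 33.1, 32.2 and 5.43, while those at 200 mg/kg SP300 had 117, 277, 242, 225.5 and 229. Control mice had 50.8, 47.9, 36.8, 63.6 and 8.39, none of them over the filter. The rise was 2.95 ± 0.28, 2.83 ± 0.28 and 3.30 ± 0.28 over the SP70 doses (adjusted p = 5.18e-10, 6.96e-10 and 1.45e-11), or at least 2.24-, 2.05- and 2.89-fold. It was 3.70 ± 0.28 after SP30 (adjusted p = 6.29e-13; at least 3.83-fold) and 2.17 ± 0.28 after 200 mg/kg SP300 (adjusted p = 2.84e-07). The fold after 200 mg/kg SP300 was 1.36 with signals under 165 raised to it. It is no strict bound, since the treated mouse at 117 was raised too. The second probe set that passed the filter, 1421694_a_at, made the same calls against control, at 2.95, 3.54 and 3.27 for the SP70 doses, 3.57 for SP30 and 2.05 for 200 mg/kg SP300. Vcan after 10 mg/kg SP300 changed by -0.83 (adjusted p = 0.155). Without control replicate 5 that change was -1.14 and passed (adjusted p = 0.0181), but all 10 mice lay under the filter value, and 1421694_a_at gave -0.20. The remaining 6 Vcan probe sets did not pass the filter.

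Chil3 (1419764_at, chromosome 3) encodes a secreted chitinase-like protein, also called Ym1, of monocytes, neutrophils and alternatively activated macrophages. After 10 mg/kg SP70 its signals were 750.1, 732, 1025, 1439 and 394.5. After 20 mg/kg SP70 they were 829, 448, 1065, 416 and 769, and after 40 mg/kg SP70 255, 940.3, 540.5, 769 and 771. Mice of a group differed from each other more than the 3 group means did. SP30 mice had 865, 909.6, 700.1, 1660 and 584. The 10 mg/kg SP300 mice had 4.58, 2.69, 5.03, 27.1 and 51.4, but the 200 mg/kg SP300 mice had 431, 1247, 381, 625 and 1008. Control mice had 68.6, 13.9, 16.7, 7.53 and 9.87. Outside the 10 mg/kg SP300 group, the lowest treated mouse (255) thus lay over the highest control mouse (68.6). The rises were 4.71 ± 0.42, 4.45 ± 0.42 and 4.31 ± 0.42 over the SP70 doses, at least 4.83-, 4.01- and 3.63-fold. They were 4.86 ± 0.42 after SP30 and 4.46 ± 0.42 after 200 mg/kg SP300, at least 5.35- and 4.03-fold, and the highest of these 5 adjusted p-values was 3.56e-10. The 5 raised groups overlapped their neighbours in the order of means, which lay between 655 and 944. The probe set shared with the paralogue Chil4, 1425451_s_at, rose in the same 5 groups by 2.14 to 2.45, whereas 1425450_at, named Chil4 alone, passed in none.

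Lyz2 (1423547_at, chromosome 10), the lysozyme of monocytes, macrophages and neutrophils, declined with each step of SP70 dose. At 10 mg/kg SP70 its signals were 12221, 15172, 14292, 17628 and 10228. At 20 mg/kg SP70 they were 7185, 6391, 7056, 5080 and 7858. At 40 mg/kg SP70 the mice had 2930, 5533, 2597, 4275 and 3543. The 10 and 20 mg/kg doses did not overlap, whereas 1 mouse at 40 mg/kg reached the range of the 20 mg/kg mice. SP30 mice had 7667, 9095, 7504, 13883 and 10679. SP300 mice had 3958, 3851, 5119, 4318 and 3189 at 10 mg/kg and 3267, 3756, 2972, 4401 and 3672 at 200 mg/kg. The control values were 3905, 3360, 3006, 4131 and 3634, so both SP300 groups and the 40 mg/kg SP70 group lay over the same range as control. The rise over control was 1.93 ± 0.17 after 10 mg/kg SP70 (3.81-fold; adjusted p = 1e-10) and 0.89 ± 0.17 after 20 mg/kg (1.85-fold; adjusted p = 8.74e-05). After 40 mg/kg it was 0.02, with an interval of -0.33 to 0.37. SP30 gave 1.40 ± 0.17 (2.65-fold; adjusted p = 2.57e-08). The change was 0.17 after 10 mg/kg SP300 (interval -0.18 to 0.52) and 0.00 after 200 mg/kg SP300 (interval -0.35 to 0.35).

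Lyz2 and Lyz1 are near-identical copies, and probe sets of the x_at kind can bind transcripts of both. Lyz1 1436996_x_at moved with Lyz2, by 1.82, 0.91 and 0.02 over the SP70 doses, 1.41 after SP30, and 0.17 and 0.02 after SP300. Lyz1 1450822_at was under the filter value in every mouse and passed in no comparison with control. The Lyz2 probe set is not of the x_at kind. How much Lyz2 transcript the x_at set named Lyz1 reads was not tested, nor how much Lyz1 transcript the Lyz2 set reads.

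Mpeg1 (1427076_at, chromosome 19) encodes perforin-2, a pore-forming protein of macrophages and monocytes. It rose in the SP70, SP30 and 200 mg/kg SP300 groups and had its highest mean after SP30 (12806 ± 2081, SD, n = 5). At 10 mg/kg SP70 the mice had 11045, 9554, 8089, 8235 and 9556. They had 10758, 10971, 12436, 8993 and 8828 at 20 mg/kg SP70, and 8816, 8018, 4151, 8495 and 7388 at 40 mg/kg SP70. Replicate 3 of the 40 mg/kg group was the one SP70 mouse within the control range. It was the lowest of its group in 5 of the 7 transcripts. SP30 mice had 9398, 14764, 12658, 14144 and 13068. SP300 mice had 4594, 6173, 8701, 6571 and 7297 at 10 mg/kg and 8853, 10328, 8183, 8769 and 12006 at 200 mg/kg. Control mice had 5013, 4241, 3937, 4657 and 4288. The 10 mg/kg SP300 group was higher than control in 4 of 5 mice, by 0.56 ± 0.16, but did not pass (adjusted p = 0.0789). Without its replicate 1 the change was 0.69 (adjusted p = 0.0221). The rises were 1.06, 1.22 and 0.69 over the SP70 doses (adjusted p = 4.45e-06, 1.59e-07 and 0.000593), 1.52 after SP30 (1.03e-09) and 1.11 after 200 mg/kg SP300 (1.55e-06), each ± 0.16.

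Plac8 (1451335_at, chromosome 5), also called onzin, is a small cysteine-rich protein of myeloid cells and is high in classical monocytes. After 10 mg/kg SP70 it had 5078, 6461, 6098, 5269 and 6246. The 20 mg/kg SP70 mice had 6215, 5486, 5466, 5490 and 5160, and the 40 mg/kg SP70 mice 6616, 5744, 3137, 6821 and 5467. The 3 doses lay over the same range, apart from the low replicate 3 at 40 mg/kg. SP30 mice had 7201, 7353, 6671, 5524 and 7619. SP300 mice had 1450, 3591, 3458, 2718 and 2830 at 10 mg/kg, and 3161, 3906, 3717, 4262 and 4667 at 200 mg/kg. Control mice had 2268, 2046, 2143, 2600 and 2271, under every mouse of the SP70, SP30 and 200 mg/kg SP300 groups. Plac8 rose by 1.36, 1.29 and 1.24 over the SP70 doses (2.57-, 2.46- and 2.38-fold), by 1.59 after SP30 (3.03-fold) and by 0.79 after 200 mg/kg SP300 (1.73-fold), each ± 0.17. The highest of these 5 adjusted p-values was 0.000582. After 10 mg/kg SP300 the change was 0.25 (adjusted p = 0.562), with 4 of 5 mice over every control mouse and replicate 1 under all of them.

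Over the dose of SP70, the transcripts took different courses once they had left the control level. Between 20 and 10 mg/kg, 0 members were higher and 2 lower, where 17% of all genes changed (4.99% higher and 12% lower). These were Lyz2 at -1.04 ± 0.17 (adjusted p = 9.24e-05) and Ccr2 at -0.69 ± 0.20 (adjusted p = 0.0165). The Ccr2 call was made by its brightest probe set alone and was lost without replicate 2 of the 20 mg/kg group (adjusted p = 0.0624). Between 40 and 20 mg/kg 2 members were lower, beside 11.5% of all genes (2.79% higher and 8.68% lower). Lyz2 changed by -0.87 ± 0.17 (adjusted p = 0.000955). Mpeg1 changed by -0.53 ± 0.16 (adjusted p = 0.0271), and without the low replicate 3 of the 40 mg/kg group by -0.34 (adjusted p = 0.15). Between 40 and 10 mg/kg, Lyz2 at -1.91 ± 0.17 (adjusted p = 1.01e-09) and Ccr2 at -0.83 ± 0.20 (adjusted p = 0.00201) were lower, beside 30.5% of all genes (5.21% higher and 25.3% lower). A count of 2 lower among 7 is near the share of all genes. The other Ccr2 probe sets did not pass there, with -0.17 for 1421188_at (adjusted p = 0.75) and -0.0081 for 1460067_at (adjusted p = 0.989). Vcan, Chil3, Plac8 and Cx3cr1 did not pass between any 2 of these doses. Their differences of 40 from 10 mg/kg were 0.36 (interval -0.22 to 0.94), -0.40 (-1.26 to 0.46), -0.11 (-0.46 to 0.24) and -0.06 (-0.74 to 0.62), so a shift of up to 1.26 for Chil3 could not be seen at this precision.

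A straight line over 0, 10, 20 and 40 mg/kg gave 4 higher and 2 lower slopes among the 7, beside 45.1% of all genes (14.8% higher and 30.4% lower). Chil3 had a slope of 0.083 per mg/kg and Vcan 0.068 (adjusted p = 2.28e-08 and 4.54e-10), Plac8 0.024 and Mpeg1 0.012 (adjusted p = 1.05e-05 and 0.00945). Cx3cr1 had a slope of -0.029 (adjusted p = 0.00351) and Lyz2 of -0.013 (adjusted p = 0.00784). A single slope does not describe Lyz2, which stood over control at the lower doses and at the control level at 40 mg/kg. The other slopes called also do not mean a steady change with dose, since most of the change was present at 10 mg/kg. At 10, 20 and 40 mg/kg the change against control was 4.71, 4.45 and 4.31 for Chil3 and 2.95, 2.83 and 3.30 for Vcan. It was 1.36, 1.29 and 1.24 for Plac8, 1.06, 1.22 and 0.69 for Mpeg1, and -1.37, -1.19 and -1.44 for Cx3cr1. The Ccr2 slope was 0.0091 (adjusted p = 0.131), and 0.030 by probe set 1421188_at (adjusted p = 0.00186).

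**Figure D3:**
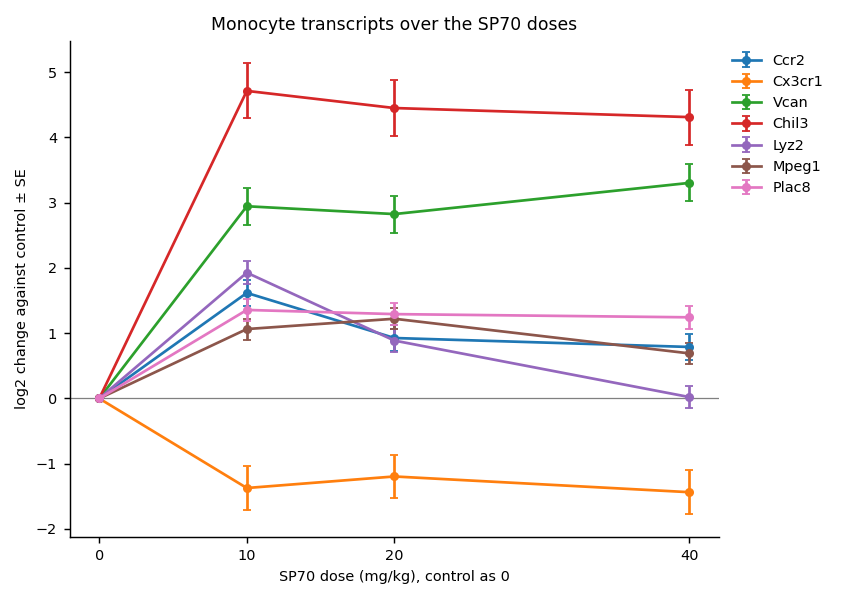
Change of the 7 transcripts against control (vertical axis, log2, ± SE) over the SP70 dose (horizontal axis, mg/kg, control drawn as 0 at a change of 0; 5 mice a dose; lines join the doses). Chil3 and Vcan stayed at 4.31 to 4.71 and 2.83 to 3.30, sizes that rest on control signals under 165 (at least 3.63- and 2.05-fold), Lyz2 came down to 0.02 at 40 mg/kg, and Cx3cr1 lay below 0 at each dose.

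At an equal 10 mg/kg, both smaller particles differed from SP300 in all 7 transcripts by their brightest probe sets. SP30 over SP300 gave 6 higher and 1 lower, beside 51.8% of all genes (16.2% higher and 35.6% lower). SP70 over SP300 also gave 6 higher and 1 lower, beside 20.6% (10.5% higher and 10.2% lower). The differences of SP30 from SP300 were 5.12 for Chil3, 4.53 for Vcan, 1.35 for Plac8, 1.23 for Lyz2, 0.95 for Mpeg1, 0.83 for Ccr2 and -1.21 for Cx3cr1, with adjusted p-values of at most 0.00256. Chil3 and Vcan were under 165 in all 5 mice given 10 mg/kg SP300, so these are differences of at least 5.35- and 3.83-fold. Ccr2 was at least 1.63-fold higher and Cx3cr1 at least 1.77-fold lower, as some mice of the lower group were under 165. The differences of SP70 from SP300 were 4.97 for Chil3, 3.78 for Vcan, 1.76 for Lyz2, 1.59 for Ccr2, 1.11 for Plac8, 0.50 for Mpeg1 and -1.54 for Cx3cr1. Chil3 was at least 4.83-fold, Vcan at least 2.24-fold and Ccr2 at least 2.82-fold higher, and Cx3cr1 at least 2.02-fold lower. All adjusted p-values were at most 0.0236, the highest being that of Mpeg1, whose call was lost without replicate 1 of either group. The Ccr2 difference depended on the probe set. 1460067_at gave 0.06 for SP30 over SP300 (adjusted p = 0.898) and 0.30 for SP70 over SP300 (adjusted p = 0.578), and 1421188_at gave 0.77 (adjusted p = 0.0498) and 1.15 (adjusted p = 0.0114).

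Between SP30 and SP70 at 10 mg/kg, 4 of the 7 differed, 2 higher and 2 lower, beside 29% of all genes (5.4% higher and 23.6% lower). Vcan was higher after SP30 by 0.76 ± 0.28 (adjusted p = 0.0429) and Mpeg1 by 0.45 ± 0.16 (adjusted p = 0.031). Ccr2 was lower after SP30, by -0.76 ± 0.20 (adjusted p = 0.00444), and Lyz2 by -0.52 ± 0.17 (adjusted p = 0.0209). Of these, the calls for Vcan, Mpeg1 and Lyz2 were lost on leaving out single mice, in 7, 5 and 4 of 10 cases. Vcan also missed by probe set 1421694_a_at (0.62, adjusted p = 0.093), with a pseudocount of 1 (adjusted p = 0.149) and without the filter (adjusted p = 0.0665). Lyz2 also missed with quantile normalization (adjusted p = 0.088) and with centred arrays (adjusted p = 0.0553). The Ccr2 call remained without each of the 10 mice, but 1421188_at gave -0.38 (adjusted p = 0.429). Plac8, Chil3 and Cx3cr1 did not pass, with intervals of -0.12 to 0.59, -0.71 to 1.00 and -0.36 to 1.00.

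At the toxic doses, fewer of the transcripts differed. SP30 over 40 mg/kg SP70 had 2 higher and 0 lower, beside 5.7% of all genes (3.68% higher and 2.03% lower), namely Lyz2 (1.38 ± 0.17, adjusted p = 2.07e-06) and Mpeg1 (0.83 ± 0.16, adjusted p = 0.000983). SP30 over 200 mg/kg SP300 had 3 higher and 0 lower, beside 29.2% (11.6% higher and 17.5% lower), namely Vcan (1.53 ± 0.28, adjusted p = 9.6e-05), Lyz2 (1.41 ± 0.17, adjusted p = 1.59e-07) and Plac8 (0.80 ± 0.17, adjusted p = 0.000596). Mpeg1 just missed there, at 0.41 (adjusted p = 0.0529). It passed with quantile normalization (adjusted p = 0.0205) and in a fit of only these groups (adjusted p = 0.0288). SP70 at 40 mg/kg over SP300 at 200 mg/kg had 1 higher and 0 lower, beside 15.5% (5.04% higher and 10.4% lower), which was Vcan (1.14 ± 0.28, adjusted p = 0.0057). Ccr2, Chil3 and Cx3cr1 passed in none of these 3 comparisons. Their intervals for SP70 over SP300 were -0.23 to 0.60, -1.01 to 0.71 and -0.59 to 0.76, so for Chil3 a difference of up to 1.01 lay within the interval.

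**Figure D4:**
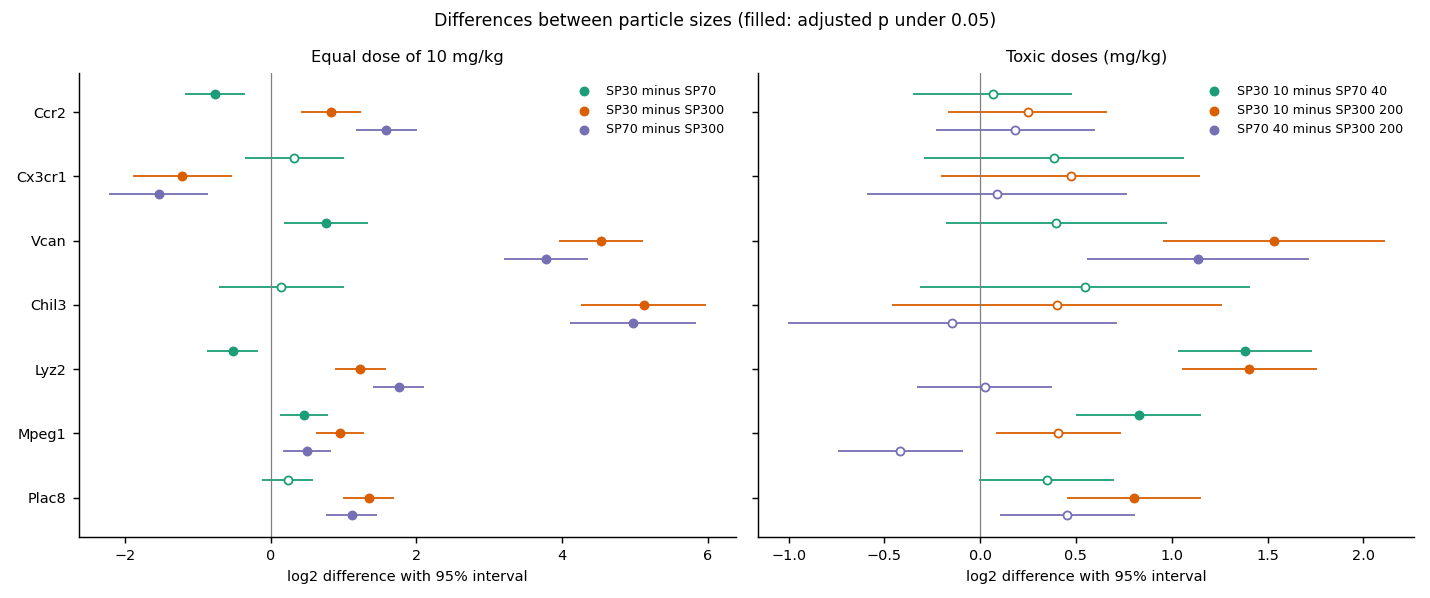
Log2 difference between particle sizes with its 95% interval (horizontal axis) for each transcript (rows), at 10 mg/kg on the left and at the toxic doses on the right; filled points passed an adjusted p of 0.05 (5 mice a group). Chil3 and Vcan lay 3.78 to 5.12 over SP300 at 10 mg/kg, where every SP300 mouse was under the filter value, so that these are differences of at least 4.83-fold for Chil3 and 2.24-fold for Vcan, while at the toxic doses their differences lay between -0.15 and 1.53.

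SP300 itself was compared at 2 doses. At 200 over 10 mg/kg, 5 transcripts were higher and 1 lower, beside 31.7% of all genes (9.39% higher and 22.3% lower). Chil3 rose by 4.71 ± 0.42 (adjusted p = 1.05e-10), Vcan by 3.00 ± 0.28 (adjusted p = 4.2e-10), Ccr2 by 0.58 ± 0.20 (adjusted p = 0.0282), Mpeg1 by 0.55 ± 0.16 (adjusted p = 0.00837) and Plac8 by 0.54 ± 0.17 (adjusted p = 0.015). Cx3cr1 fell by 1.69 ± 0.33 (adjusted p = 0.00017). Lyz2 changed by -0.17 (interval -0.53 to 0.18). With signals under 165 in the lower group, these were rises of at least 4.03-fold for Chil3 and at least 1.36-fold for Ccr2, and a fall of at least 2.02-fold for Cx3cr1. The Vcan fold, 1.36 with signals under 165 raised to it, is no strict bound. There 1 mouse given 200 mg/kg was raised too. The Plac8 rise was 0.32 without replicate 1 of the 10 mg/kg group (adjusted p = 0.0985), and the Ccr2 call was lost in 5 of 10 cases when 1 mouse was left out, with changes of 0.42 to 0.56. The other Ccr2 probe sets did not pass, at 0.50 each (adjusted p = 0.265 and 0.278). A fit of only these 2 groups called 4 of the 7 in place of 6, since Ccr2 (adjusted p = 0.101) and Plac8 (adjusted p = 0.0537) then missed the threshold.

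A wider list of 28 monocyte genes, of which 23 were tested, was set beside the 7. After 10, 20 and 40 mg/kg SP70, 16, 15 and 14 of the 23 rose and 0, 4 and 6 fell, beside 12.5%, 18.8% and 15.6% of all genes higher and 5.69%, 20.9% and 28.8% lower. SP30 gave 16 higher and 1 lower, 10 mg/kg SP300 1 and 0, and 200 mg/kg SP300 10 and 6. The shares of all genes there were 18% and 31.3%, 0.923% and 0.245%, and 12.6% and 18%. The one that rose after 10 mg/kg SP300 was Ms4a6d (0.75, adjusted p = 0.0222). The median change of the list was 0.91, 0.71 and 0.47 over the SP70 doses, 1.14 after SP30, 0.21 after 10 mg/kg SP300 and 0.16 after 200 mg/kg SP300. F13a1, a coagulation factor subunit, was over control by at least 8.77-, 7.62- and 7.03-fold over the SP70 doses, 9.42-fold after SP30 and 4.67-fold after 200 mg/kg SP300. Ccr1, another chemokine receptor, rose at least 2.45-, 2.40- and 3.97-fold over the SP70 doses, 4.94-fold after SP30 and 1.53-fold after 200 mg/kg SP300. S100a4, a calcium-binding protein, rose at least 5.24-, 3.32- and 2.73-fold, then 4.01- and 2.28-fold. All 5 control mice were under 165 for these 3 genes. Of the 23 tested, 5 were under 165 in every control mouse. They entered the test only through groups given particles, so the filter in part sets the counts of rises.

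Other genes of the list fell. Fcgr1, the high-affinity Fc receptor of monocytes and macrophages, averaged 219, 121 and 129 over the SP70 doses, 230 after SP30, 344 and 83.8 after 10 and 200 mg/kg SP300, and 267 in control mice, and it fell after 20 and 40 mg/kg SP70 and 200 mg/kg SP300. Cybb, an oxidase subunit of phagocytes, changed in both directions. It rose by 0.91 after 10 mg/kg SP70 and 1.14 after SP30, and changed by -0.43 after 40 mg/kg SP70 (adjusted p = 0.0419) and by -0.81 after 200 mg/kg SP300. Msrb1, a methionine sulfoxide reductase, fell in 4 groups, at -0.52 and -0.64 after 20 and 40 mg/kg SP70, -0.74 after SP30 and -0.33 after 200 mg/kg SP300. Itgal, an integrin subunit of leukocytes, fell after 40 mg/kg SP70 and 200 mg/kg SP300, at -1.29 in both.

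Of the genes linked with non-classical monocytes, Treml4 and Fcgr4 fell in 3 groups, while Spn and Nr4a1 rose. Treml4 averaged 591, 143 and 101 over the SP70 doses, 442 after SP30, 707 and 41.2 after 10 and 200 mg/kg SP300, and 427 in control mice. It fell by 1.48 after 20 mg/kg SP70 (adjusted p = 0.000127), by 1.95 after 40 mg/kg (adjusted p = 1.65e-06) and by 3.20 after 200 mg/kg SP300 (adjusted p = 2.39e-10), or at least 2.41-, 2.48- and 2.48-fold. After 10 mg/kg SP70 its change was 0.49 (adjusted p = 0.286), a dose at which Cx3cr1 fell. Fcgr4, an Fc receptor of the same cells, fell in the same 3 groups, at least 2.40-, 2.24- and 2.40-fold, and was at -0.46 (adjusted p = 0.227) after 10 mg/kg SP70 and 0.02 after SP30. Spn, which encodes CD43, rose after 20 and 40 mg/kg SP70 (0.71 and 0.60) and passed in no other group. However, 4 control mice were under 165 for Spn, so the size of these rises is not firm. With signals under 165 raised to it, the Spn folds were only 1.24 and 1.17. Nr4a1, a nuclear receptor that non-classical monocytes need and that many stimuli induce, rose by 1.51, 1.24 and 1.53 over the SP70 doses, 2.03 after SP30 and 0.76 after 200 mg/kg SP300.

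Ligands and growth factors of monocytes rose in the same groups as Vcan and Chil3. Of 11 listed, 8 were tested, and 6 of these rose at each SP70 dose, after SP30 and after 200 mg/kg SP300, while 0 passed after 10 mg/kg SP300. However, 3 of the 8, Ccl2, Ccl3 and Ccl7, were under 165 in every control mouse. They entered the test only through groups given particles, so the filter in part sets this count. With signals under 165 raised to it, Ccl7 folds were 2.52, 2.70 and 4.70 over the SP70 doses, 4.88 after SP30 and 1.34 after 200 mg/kg SP300. The shares of all genes higher than control are those given beside the monocyte list. Ccl2, the main ligand of CCR2, averaged 3186, 3085 and 6340 over the SP70 doses, 7565 after SP30, 12.1 and 1408 after 10 and 200 mg/kg SP300, and 40.5 in control mice. Ccl7, the other ligand named above, averaged 436, 464 and 823 over the SP70 doses, 832 after SP30, 81.9 and 215 after SP300, and 83.9 in control mice. Ccl2 thus differed from Ccr2 in its order of SP70 doses, since its highest SP70 mean was at 40 mg/kg and that of Ccr2, by its brightest probe set, at 10 mg/kg. Csf1, the growth factor of monocytes and macrophages, averaged 1840, 1370 and 1443 over the SP70 doses, 1417 after SP30, 509.5 and 960.5 after SP300, and 503 in control mice. Ccl8 and Il34 passed in no group.

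Markers of other cells moved in the same livers. Of 16 neutrophil genes tested, 9, 10 and 12 rose over the SP70 doses, 12 after SP30, 0 after 10 mg/kg SP300 and 8 after 200 mg/kg SP300, and none fell, beside 12.5%, 18.8%, 15.6%, 18%, 0.923% and 12.6% of all genes higher. Their summed signal per mouse was 21918 to 30409, 21594 to 32757 and 29392 to 68654 over the SP70 doses, 54509 to 73772 after SP30, 2997 to 3732 and 12196 to 28124 after 10 and 200 mg/kg SP300, and 2149 to 4597 in control mice. S100a8, a defining neutrophil gene that classical monocytes also express, rose by 4.04 after 10 mg/kg SP70, 5.08 after 40 mg/kg and 5.43 after SP30. S100a8 and its partner S100a9 made up 73.3% to 85.8% of the sum in the mice of the SP70, SP30 and 200 mg/kg SP300 groups, so the sum mostly follows these 2 genes. The other 14 genes had a median sum of 5349, 4955 and 6914 over the SP70 doses, 10125 after SP30, 2289 and 3382 after SP300, and 1992 in control mice. Lyz2, which neutrophils also use, had its highest mean at 10 mg/kg SP70, and how much neutrophils add to its level was not tested. In the control and 10 mg/kg SP300 groups, 5 of the 16 genes were under the filter value in every mouse. Those under it in control entered the test only through groups given particles, so the filter in part sets these counts too.

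Of 17 Kupffer cell genes, 10, 13 and 14 fell over the SP70 doses, 12 after SP30, 0 after 10 mg/kg SP300 and 15 after 200 mg/kg SP300, while 2, 1, 1, 3, 1 and 0 rose. Of all genes 5.69%, 20.9%, 28.8%, 31.3%, 0.245% and 18% were lower. Their summed signal was 18605 to 29806, 10210 to 13968 and 10935 to 13345 over the SP70 doses, 23346 to 33102 after SP30, 42888 to 56617 and 6506 to 9232 after SP300, and 35577 to 49282 in control mice. Clec4f, a lectin of Kupffer cells, averaged 941, 183 and 62.0 over the SP70 doses, 721 after SP30, 3714 and 45.6 after 10 and 200 mg/kg SP300, and 3784 in control mice. It was under 165 in every mouse given 40 mg/kg SP70 or 200 mg/kg SP300, a fall of at least 22.8-fold in both. Csf1r, the CSF1 receptor of monocytes and macrophages alike, averaged 4952, 1740 and 1320 over the SP70 doses, 4069 after SP30, 10115 and 1126 after SP300, and 10556 in control mice. The 3 groups with the lowest Kupffer sums were those in which Treml4 and Fcgr4 fell. Lyz2 lay at the control level in 2 of them, 40 mg/kg SP70 and 200 mg/kg SP300, but was higher by 0.89 after 20 mg/kg SP70. Lyz2 also lay at the control level after 10 mg/kg SP300, where the median Kupffer sum was highest (51878). The part of neutrophils and Kupffer cells in the levels of Lyz2, Mpeg1, Plac8, Chil3, Cx3cr1, Treml4 and Fcgr4 was not tested. Nor was that of stellate cells and fibroblasts in the level of Vcan.

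Endothelial genes also fell in part, 2, 5 and 7 of 10 over the SP70 doses, 7 after SP30 and 6 after 200 mg/kg SP300, while 1, 2, 1, 1 and 2 rose. Lyve1, a hyaluronan receptor of sinusoidal endothelium, was among those that rose, by 1.46, 2.14 and 1.61 over the SP70 doses, 1.56 after SP30 and 1.67 after 200 mg/kg SP300. Of all genes 5.69%, 20.9%, 28.8%, 31.3% and 18% were lower in these 5 groups. Stellate cell and fibroblast genes fell in 1, 2 and 5 of 12 over the SP70 doses, 7 after SP30 and 2 after 200 mg/kg SP300, and 1 of the 12 rose in each of these groups. Of all genes 12.5%, 18.8%, 15.6%, 18% and 12.6% were higher in these 5 groups. T and NK cell genes rose in 3, 2 and 2 of 5 over the SP70 doses and in 1 after SP30, and B cell genes in none of 4 in any group. With signals under 165 raised to it, folds after 10 mg/kg SP70 were 1.94 for Gzma, 1.04 for Cd3d and 1.13 for Ncr1. All 5 control mice were under 165 for Cd3d and Ncr1. Dendritic cell genes rose in 1 of 5 after each SP70 dose and after 200 mg/kg SP300 and in 2 after SP30. Of 11 hepatocyte genes, which checked the tissue label, 0, 0 and 2 fell over the SP70 doses, 2 after SP30, and 0 and 3 after 10 and 200 mg/kg SP300. In the same order, 1, 1, 0, 2, 0 and 0 rose. Of all genes 5.69%, 20.9%, 28.8%, 31.3%, 0.245% and 18% were lower, and 12.5%, 18.8%, 15.6%, 18%, 0.923% and 12.6% higher. The summed signal of the hepatocyte genes lay between 615005 and 860598 in all mice.

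For each transcript, the genes most like it were taken as those with the smallest root mean square difference over the 7 centred group means. Vcan and Chil3 had few close neighbours, with 23 and 14 genes within 0.5, against 193 for Lyz2 and between 1633 and 5029 for the others. The measure is not scaled to the size of a gene's changes, so these counts also follow that size. For Vcan and Chil3 the size rests on control signals under 165 and is not firm. Nearest to Vcan were Stfa2l1 (0.29), Ch25h (0.31) and F13a1 (0.33). Nearest to Chil3 were Cxcl9 (0.31), Clec4d (0.32) and Saa2 (0.33), and no other member was among the 3 nearest to any of the 7. Lyz1 (0.042), Rtp4 (0.17) and Rgs1 (0.21) were nearest to Lyz2. The Lyz1 entry is 1436996_x_at, a set that can bind transcripts of both genes, so its nearness may not be that of a separate transcript. The pattern of Ccr2 was most like that of Lsp1 (0.15), Tbc1d24 (0.19) and Gzma (0.20), and that of Mpeg1 like Ifitm1, Psmb8 and Sema6b (0.14 to 0.15). Plac8 was nearest to Nfkbib (0.073), 2210408K08Rik (0.089) and Snhg17 (0.093), and Cx3cr1 to Plscr4 (0.24), Sdc3 (0.25) and Setd4 (0.25). With 3458 genes within 0.5 for Ccr2 and 5029 for Mpeg1, likeness there says little about a single gene.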

How the data were processed

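One array per mouse measured liver RNA of 35 mice, 5 in each of 7 groups taken from the labels. The deposited table holds linear intensity values per probe set, made by the authors with MAS5, per the submitters' processing notes. Its version and the scaling of the arrays are not given in the sources used here, and array means, with 2% trimmed off both ends, spanned 887 to 1139. No further scaling was applied. Among 45101 probe sets, 64 are controls, 34945 carry one gene in the annotation, 932 several and 9160 none. Of those with one gene, 34741 matched the RefSeq mouse gene table (GRCm38.p6) by identifier, with 0 symbols changed. Values were taken to log2 after adding 12.5, their 10th percentile. Probe sets exceeding 165, the median value, on 5 or more arrays were kept (26864). Of these 22660 name 1 gene, and the one with the highest mean signal was used for each of 12678 genes.

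With limma 3.58.1 (R 4.3.3), 1 mean was fitted for each group over the 35 arrays, with variances moderated along a trend on mean signal, and 16 comparisons between groups and the slope on SP70 dose (control as 0) were tested two-sided. Adjusted p-values are Benjamini-Hochberg values over all genes of a comparison, with a threshold of 0.05. The fit was tested on simulated data. All 7 members are described, and beside them up to 3 like genes each and genes of 11 marker lists (144 genes, 114 tested). The members and the lists were chosen with earlier results of these data known, so counts over a list are descriptions. Alternatives were other pseudocounts and filters, quantile normalization, centring on array medians, the mean of a gene's probe sets, other single probe sets, a fit of only the groups compared, no variance trend, a replicate block, and each mouse left out in turn. Depth is unknown for arrays; no detection calls were used, and signals under 165 have no order here.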

Additional observations from a re-analysis of the deposited data

Results flagged for a closer look

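Each of the 7 transcripts in each group, 49 sets of 5 mice, was searched for a mouse whose gap to its nearest neighbour exceeded 0.71 of the whole range of the group. The search marked 1 set. Chil3 in control replicate 1 had a signal of 68.6, where the other control mice had 13.9, 16.7, 7.53 and 9.87. Chance marks about 1 in 20 such sets, and the value lies under the filter value of 165, where signals have no firm order.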

How the results depend on the processing

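A result counted as kept if it stayed on its side of the threshold and, where it passed, in its direction. Of 119 results for single transcripts (7 transcripts in 17 comparisons), 119 were kept with a pseudocount of 46.6, and so they were without the variance trend. The number was 118 with a pseudocount of 1 and without the filter, 115 with quantile normalization, 116 with centred arrays, and 115 each with the mean of all kept probe sets and with only the groups compared. With the filter on 20 arrays it was 101 of 102, as Cx3cr1 was not tested there. Over 1260 results with 1 mouse left out, 1222 were kept, 31 lost a call, 7 gained one and 0 reversed a call. Changes that did not pass could cross 0 and still count as kept. Chil3 after 10 mg/kg SP300 ran from -0.58 to 0.09, and Lyz2 after 40 mg/kg SP70 from -0.13 to 0.14. The number of transcripts called between 40 and 20 mg/kg SP70, 2 as reported, was 1 with quantile normalization, with centred arrays and with only the groups compared. For 40 mg/kg SP70 over 200 mg/kg SP300 it was 2 with quantile normalization and with centred arrays, in place of 1. The mean of the kept probe sets gave 1 in place of 2 for 20 over 10 and for 40 over 10 mg/kg SP70, since Ccr2 then missed the threshold (-0.17 and -0.33). Probe set 1460067_at of Ccr2 reversed the difference of 20 over 10 mg/kg SP70, at 0.44. Leaving out single mice gave 0 to 1 calls for 10 mg/kg SP300 over control, 2 to 3 for SP30 over SP70 at 10 mg/kg (4 as reported), 1 to 2 for 20 over 10 and for 40 over 20 mg/kg SP70, and 1 to 2 for 40 mg/kg SP70 over 200 mg/kg SP300. The cause of these shifts was not tested. Probe sets under the filter gave no value. Same-numbered mice did not deviate together (105 pairs, mean correlation -0.000671, from -0.103 to 0.112; 6 of 35 arrays correlated best with their own number). With the replicate number as a block 119 of 119 results were kept, with 7, 7 and 6 transcripts called over the SP70 doses, 7 after SP30, and 0 and 6 after SP300.

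Over all genes, scaling moved more than the transcripts did. The share of higher genes among those called was 48.3% with quantile normalization and 68.6% as reported for 10 mg/kg SP70 over control, and 36.3% with centred arrays and 47.3% as reported for 20 mg/kg. For SP300 over control it was 56.6% with quantile normalization and 79.1% as reported at 10 mg/kg, and 53.6% with centred arrays and 41.1% as reported at 200 mg/kg. Quantile normalization gave 42.8% in place of 29.4% for 20 over 10, 55.8% in place of 24.3% for 40 over 20, and 45.5% in place of 17.1% for 40 over 10 mg/kg SP70. It gave 49.4% in place of 29.6% for SP300 at 200 over 10 mg/kg, 42.7% in place of 18.6% for SP30 over SP70, 42.0% in place of 31.4% for SP30 over SP300 at 10 mg/kg, and 43.9% in place of 32.7% for the slope. Centred arrays gave 81.8% in place of 64.5% for SP30 over 40 mg/kg SP70 and 15.7% in place of 32.6% for 40 mg/kg SP70 over 200 mg/kg SP300. Centred arrays also moved the number of genes called by over 1.5 times in 3 comparisons. They gave 348 higher and 503 lower genes for 40 over 20 mg/kg SP70 (354 and 1101 as reported), 57 and 30 for 10 mg/kg SP300 over control (117 and 31), and 475 and 2542 for 40 mg/kg SP70 over 200 mg/kg SP300 (639 and 1320).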
